A study of Mus musculus with 12 samples.

Results

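H4K12 acetylation (H4K12ac) was described at 44 genes of the 55413 annotated genes on chromosomes 1 to 19, X and Y. The genes are a list of 18 members of the TIP60 complex, of 12 other acetyltransferases and the BRPF scaffold proteins that bind them, and of 14 deacetylases. They were taken by name from the annotation of the mouse genome GRCm38, which is the build mm10, and the rule uses no measured value, although earlier results of these data were known when the list was made. The Tip60 cKO mice carried the *CaMKCreERT2* driver and *Tip60* f/f alleles, and the control mice carried the *Tip60* f/f alleles without the driver. Both genotypes had received tamoxifen, and neuronal nuclei of the whole hippocampus were sorted by FACS at day 10 after the last injection. The labels give an age of 3 months and male C57BL/6J mice, while substrain and sex differ from this in the methods of the study. With this driver, recombination takes place in excitatory neurons, so neuronal nuclei without recombination were sorted as well. H4K12ac ChIP-Seq gave 5 libraries per genotype, each with its own list of peaks, and per the file headers 1 input file served each genotype, whose values were not used here by themselves. The labels number the libraries and do not say which animals they came from, so p-values measure the spread between these libraries.

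Acetyltransferases move an acetyl group from acetyl-CoA to lysines in histone tails, and deacetylases remove it again, either with zinc (HDACs) or with NAD (sirtuins). TIP60, encoded by *Kat5* and also called *Tip60*, acetylates the tails of H4 and H2A as the catalytic subunit of a large complex. Other subunits of that complex bind modified histones, recruit it to chromatin or exchange the histone variant H2A.Z. Acetylated promoters are the usual place of transcription initiation, and several enzymes of the list, among them CBP, p300 and HDAC2, are known for their part in memory formation in the hippocampus.

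Peak calling used 22864189 to 37923809 tags per library. The lists held 64245 to 135494 peaks in Tip60 cKO and 93575 to 136409 peaks in controls, and they covered 22.6 to 59.5 Mb and 39.6 to 65.5 Mb of the genome. Tip60 cKO library 5 had both the fewest tags and the shortest list. In each list the background that a peak was compared with came either from the whole genome or, where it was higher, from the local input. Between 53.0 and 58.7% of the peaks had the genome-wide background in Tip60 cKO lists and 28.3 to 35.7% in control lists, without overlap, and since each genotype has its own input, this difference and the genotype cannot be told apart. All 5 general neuronal marker genes and 4 of 5 excitatory marker genes had a TSS peak in every list, while none of the 5 inhibitory, astrocyte, microglial or endothelial markers did so, and of the oligodendrocyte markers only *Mbp*. Markers of other cells that differed between genotypes in the number of lists with a TSS peak went both ways. *P2ry12* had a peak in 1 Tip60 cKO and 4 control lists, *Pvalb* in 0 and 3, *Kdr* in 1 and 3, *Gfap* in 4 and 5 and *Slc1a3* in 1 and 2, while *Slc32a1* had one in 2 and 0, *Gja1* in 2 and 1, and *Gad2*, *Cldn5* and *Flt1* in 1 and 0. Their part in the results was not tested.

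Promoters of the genes on which the results below turn are printed first, 5′ to 3′ on the strand of the gene. They come from RefSeq on GRCm38.p6 and run from 250 bases before to 50 bases after the RefSeq start of the gene, and capitals mark the motifs found in them on either strand. *Kat5* (chr19:5610045-5610344, minus strand) is shown because it lies between the loxP sites of the floxed allele, and its capitals mark an E-box, a CCAAT box and 2 ETS motifs. *Ep300* (chr15:81585964-81586263, plus strand) and *Hat1* (chr2:71389010-71389309, plus strand) had the highest and the lowest score at the annotated 5′ end among the other acetyltransferases with a peak there. The capitals of *Ep300* mark an SP1 motif, and those of *Hat1* an E-box, a CCAAT box, an SP1 and an ETS motif. *Brpf1* (chr6:113306887-113307186, plus strand), with an SP1 motif, was the gene whose TSS rank score came closest to the threshold of the test. *Hdac7* is shown at its annotated 5′ end (chr15:97844453-97844752, minus strand) and at a downstream start (chr15:97831718-97832017, minus strand), neither of which held a motif, since the former had a peak in 1 Tip60 cKO and 4 control lists and the latter in all 10. The last sequence is a stretch within *Ep400* (chr5:110668426-110668561, minus strand) that 4 Tip60 cKO peaks of the differing region had in common, with the 12 coding bases in capitals. The other bases are intron after this coding exon, while a longer annotated exon (chr5:110668063-110668807) covers the whole stretch.
Kat5: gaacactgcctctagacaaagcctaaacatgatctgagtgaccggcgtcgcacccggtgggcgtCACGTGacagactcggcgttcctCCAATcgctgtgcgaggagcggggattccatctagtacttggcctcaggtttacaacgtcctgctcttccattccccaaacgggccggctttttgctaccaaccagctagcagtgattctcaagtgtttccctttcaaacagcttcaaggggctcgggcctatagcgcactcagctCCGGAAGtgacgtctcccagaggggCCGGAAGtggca
Ep300: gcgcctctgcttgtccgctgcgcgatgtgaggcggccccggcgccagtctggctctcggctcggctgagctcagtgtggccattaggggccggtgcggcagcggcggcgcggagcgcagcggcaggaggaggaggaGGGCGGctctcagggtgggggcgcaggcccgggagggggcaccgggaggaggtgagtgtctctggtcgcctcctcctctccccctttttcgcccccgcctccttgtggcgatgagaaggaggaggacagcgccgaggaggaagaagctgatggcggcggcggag
Hat1: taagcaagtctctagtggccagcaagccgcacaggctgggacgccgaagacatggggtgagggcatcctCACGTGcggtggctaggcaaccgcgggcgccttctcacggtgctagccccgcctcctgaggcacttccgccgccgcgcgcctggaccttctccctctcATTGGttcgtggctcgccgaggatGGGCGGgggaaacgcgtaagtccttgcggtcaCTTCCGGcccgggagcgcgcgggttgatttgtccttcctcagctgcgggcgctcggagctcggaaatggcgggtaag
Brpf1: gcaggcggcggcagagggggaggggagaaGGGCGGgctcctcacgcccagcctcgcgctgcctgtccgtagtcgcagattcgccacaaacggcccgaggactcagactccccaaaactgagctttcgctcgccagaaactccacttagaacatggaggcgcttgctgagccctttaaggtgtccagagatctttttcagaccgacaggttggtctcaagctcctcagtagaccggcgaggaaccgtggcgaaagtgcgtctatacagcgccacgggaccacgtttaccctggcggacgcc
Hdac7 at the 5′ end: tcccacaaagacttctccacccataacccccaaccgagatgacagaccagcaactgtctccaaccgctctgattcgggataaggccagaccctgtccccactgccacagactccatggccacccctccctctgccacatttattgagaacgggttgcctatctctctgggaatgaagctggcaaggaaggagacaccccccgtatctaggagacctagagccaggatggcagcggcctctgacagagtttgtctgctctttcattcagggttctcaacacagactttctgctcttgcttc
Hdac7 at the downstream start: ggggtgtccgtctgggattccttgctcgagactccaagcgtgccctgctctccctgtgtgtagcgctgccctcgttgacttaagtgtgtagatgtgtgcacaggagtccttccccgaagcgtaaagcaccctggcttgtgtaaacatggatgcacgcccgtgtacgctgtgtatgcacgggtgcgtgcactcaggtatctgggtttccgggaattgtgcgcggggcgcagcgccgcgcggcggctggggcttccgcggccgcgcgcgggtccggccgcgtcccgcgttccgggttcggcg
Ep400: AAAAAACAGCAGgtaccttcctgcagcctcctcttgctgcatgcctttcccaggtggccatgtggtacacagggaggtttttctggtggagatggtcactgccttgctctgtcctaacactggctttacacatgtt

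The targeted gene itself kept H4K12ac peaks at its TSS in every library. *Kat5* (ENSMUSG00000024926.10) lies at chr19:5603014-5610237 on the minus strand, and its TSS window, 2 kb on either side of the annotated 5′ end, was ranked by the fold enrichment of the strongest peak in it. This TSS rank score is the percent rank among all 55413 windows of a list and is 0 for a window without a peak. *Kat5* scored 96.8, 98.6, 95.1, 97.4 and 86.0 in the Tip60 cKO libraries and 94.0, 97.8, 97.8, 99.4 and 98.8 in the control libraries. The genotypes overlapped, with the lowest value in Tip60 cKO library 5, and the means of 94.8 ± 5.07 and 97.6 ± 2.08 (SD, n = 5) did not differ beyond the spread (exact permutation test, two-sided, p = 0.294). This signal does not check the labels by itself, because a peak is called from all nuclei of a library.

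The loxP sites were placed by their distances from the ATG as given in the methods, at chr19:5606964-5610666. This interval of 3703 bp holds the TSS, the promoter printed above and the ATG, and recombination removes it. Peaks covered 42.9 ± 9.66% of it in Tip60 cKO and 41.6 ± 4.18% in controls (exact permutation test, two-sided, p = 0.778, SD, n = 5). The sign of this small difference reversed in 3 alternatives, among them the fit within lane 8, and stayed in 12. The height of the highest peak in the interval, as the number of overlapping fragments at the summit (pileup), was 37, 35, 31, 34 and 17 in Tip60 cKO and 37, 45, 42, 39 and 46 in controls. The genotypes met at 37, and the other control libraries were all higher than the Tip60 cKO libraries. Divided by the median pileup of the library, the height was 2.18, 2.19, 1.82, 2.0 and 1.31 in Tip60 cKO and 2.06, 2.50, 2.47, 2.60 and 2.42 in controls, a ratio of the means of 0.788. The means of 1.90 ± 0.363 and 2.41 ± 0.208 (SD, n = 5) gave a two-sided exact permutation p of 0.0238, or 0.0833 after Benjamini-Hochberg adjustment over the 7 comparisons made at *Kat5*. Relative to the median TSS peak of the library, a scale chosen after the data were seen, the exact permutation p was 0.0794. On the scale of the median pileup of the library, the difference was -0.28 within lane 7 and -0.86 within lane 8. Local background at these highest peaks was 1 to 1.13 times the genome-wide level in Tip60 cKO and 1.04 to 1.05 times in controls. A lower peak at recombined alleles by loss of template DNA and a loss of acetylation on the remaining DNA cannot be told apart here.

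**Figure D1:**
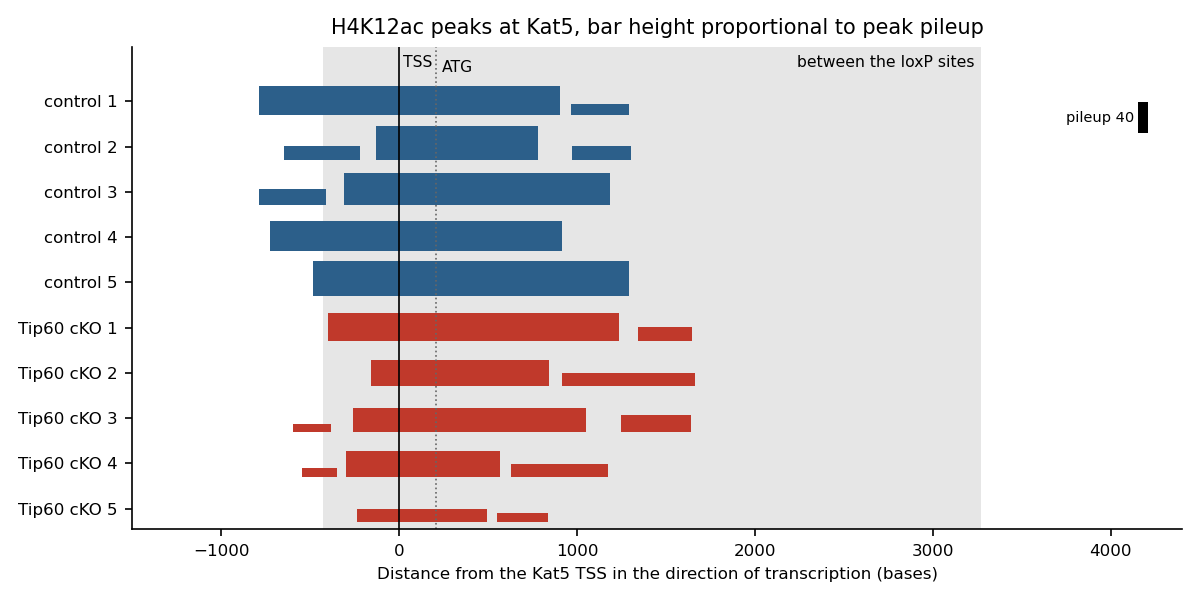
Peaks at *Kat5* in the 10 libraries, by distance from the TSS in bases along the direction of transcription, with bar height proportional to pileup (scale bar, pileup 40) and the interval between the loxP sites in grey. Every library has a peak over the TSS, and that of Tip60 cKO library 5 is the lowest, at a pileup of 17.

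Most of the genes had an acetylated start in all libraries. A TSS peak was found in every list at 33 of the 44 genes (75%), compared with 23.5% of all genes and 44% of the 21938 protein-coding genes. Of the TIP60 complex these were 15 genes, of the other acetyltransferases 8 and of the deacetylases 10. Another 8 genes had the peak in some lists, and *Actl6a*, *Kat6b* and *Hdac9* had none at the annotated 5′ end in any list. The strongest TSS peak of the 41 genes with a peak had its summit downstream of the TSS in 28 and upstream in 13, at a median distance of 202 bases and within 500 bases in 35. At 8 genes the window also holds the TSS of another protein-coding gene, so that the peak cannot be assigned to either. These pairs are *Brd8* with *Kif20a*, *Mbtd1* with *Utp18*, *Kat2a* with *Hspb9*, *Hdac3* with *Rell2*, *Sirt1* with *Dnajc12*, *Sirt2* with *Nfkbib*, *Sirt3* with *Psmd13* and *Sirt6* with *Ankrd24*.

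**Figure D2:**
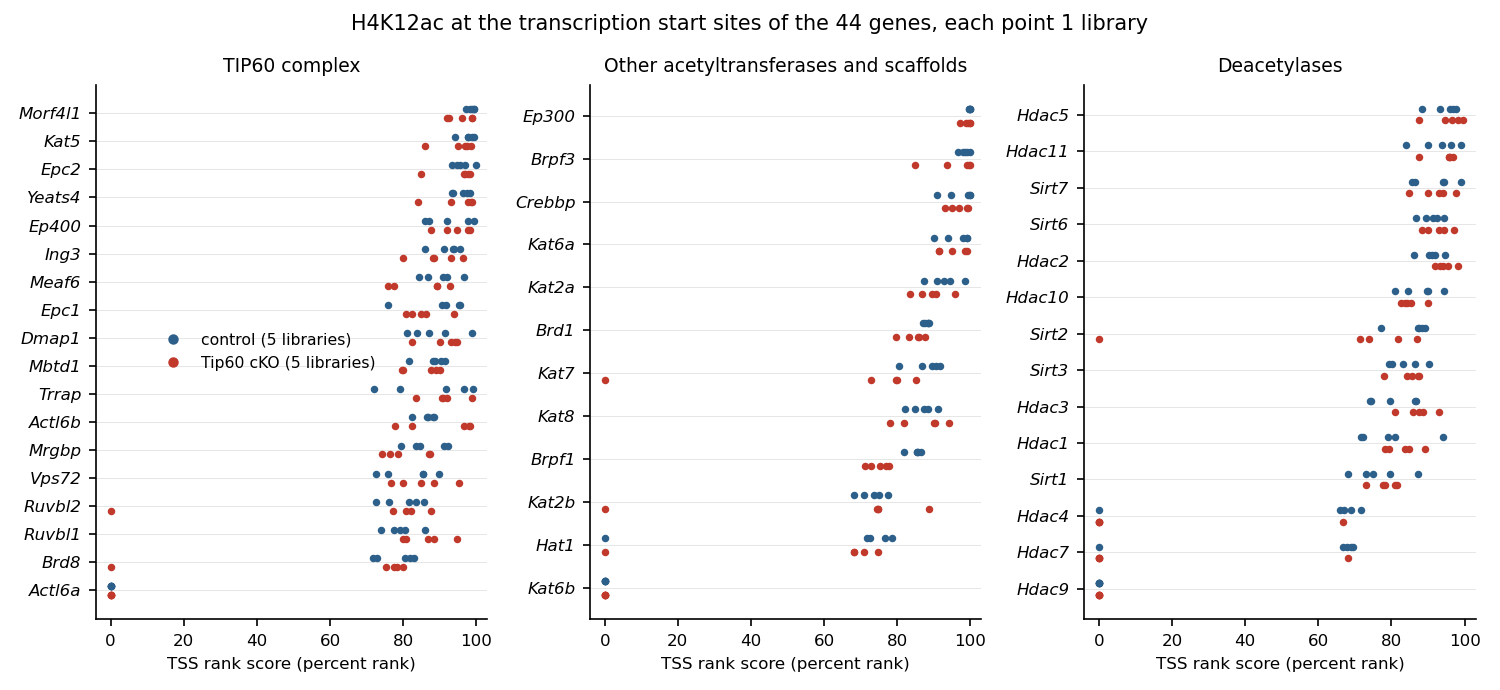
TSS rank score (percent rank, 0 without a peak) of the 44 genes in 3 groups, 1 point per library, ordered by the mean of the controls. *Ep300* is at 97.2 or above in all libraries, *Actl6a*, *Kat6b* and *Hdac9* are at 0 in all, and *Hdac4* and *Hdac7* are at 0 in 4 of 5 Tip60 cKO libraries.

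To compare the genotypes, 4 values per gene and library were tested with limma over all genes that could be tested, with Benjamini-Hochberg adjustment, and a gene was called at an adjusted p below 0.05. They are the TSS rank score, the TSS coverage (percent of the window of 4 kb in peaks), the TSS relative enrichment (log2 of the fold enrichment over the median of the library, for genes with a TSS peak in all lists) and the gene body coverage (percent of the gene from 2 kb after the TSS to its end in peaks). Genes with a peak in at least 2 lists were tested. None of the 44 genes was called in any of the 4 comparisons, in which 41, 41, 33 and 36 of them were tested. At an unadjusted p below 0.05, limma had 3 genes lower and 0 higher in TSS rank score, 14 lower and 0 higher in TSS coverage, 1 lower and 2 higher in relative enrichment, and 3 lower and 1 higher in gene body coverage. Over all genes the calls were 0.157% lower and 0.0784% higher in rank score, 1.53% and 0.0369% in TSS coverage, 0.792% and 2.78% in relative enrichment, and 0.351% and 0% in gene body coverage. With such shares among all genes, few or no calls among 44 genes do not set them apart. At the unadjusted threshold, 6.68% of all genes were lower in rank score, 22.3% in TSS coverage, 6.2% in relative enrichment and 14.9% in body coverage, and 5.1%, 0.891%, 11.7% and 0.866% were higher.

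Peaks covered less of the TSS window on average in Tip60 cKO at most of the 44 genes, as at most genes of the genome, with none of the 44 called. This value falls both with the width of a peak and with a peak missing from a list. TSS coverage was lower at 36 of 41 genes (87.8%), with a median difference of -5.63 percentage points, beside 81.0% and -4.01 over all 21672 genes tested. The groups did not overlap at 3 of the 41, *Brpf1*, *Mbtd1* and *Ing3*, all lower in Tip60 cKO, and this was so at 5.23% of all genes. In rank score 26 of 41 genes were lower with a median difference of -1.31, beside 55.6% and -0.69 over all genes. *Brpf1* alone did not overlap in this score, lower in Tip60 cKO, beside 1.62% of all genes lower and 1.93% higher. In relative enrichment 18 of 33 genes were lower with a median of -0.02 on the log2 scale, beside 45.6% and 0.02 over all 13004 genes. There too *Brpf1* alone did not overlap, lower in Tip60 cKO, beside 1.19% of all genes lower and 3.16% higher. Median TSS coverage over the 41 genes was 28.8, 21.7, 23.9, 23.2 and 14.8% in the Tip60 cKO libraries and 28, 28.9, 27.4, 21.5 and 30.3% in the controls. The ranges overlap, and the lowest value belongs to Tip60 cKO library 5, which has the shortest list. Coverage grows with the number of peaks in a list, whose part in this difference was not tested gene by gene beyond the alternative with an equal number of peaks.

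**Figure D3:**
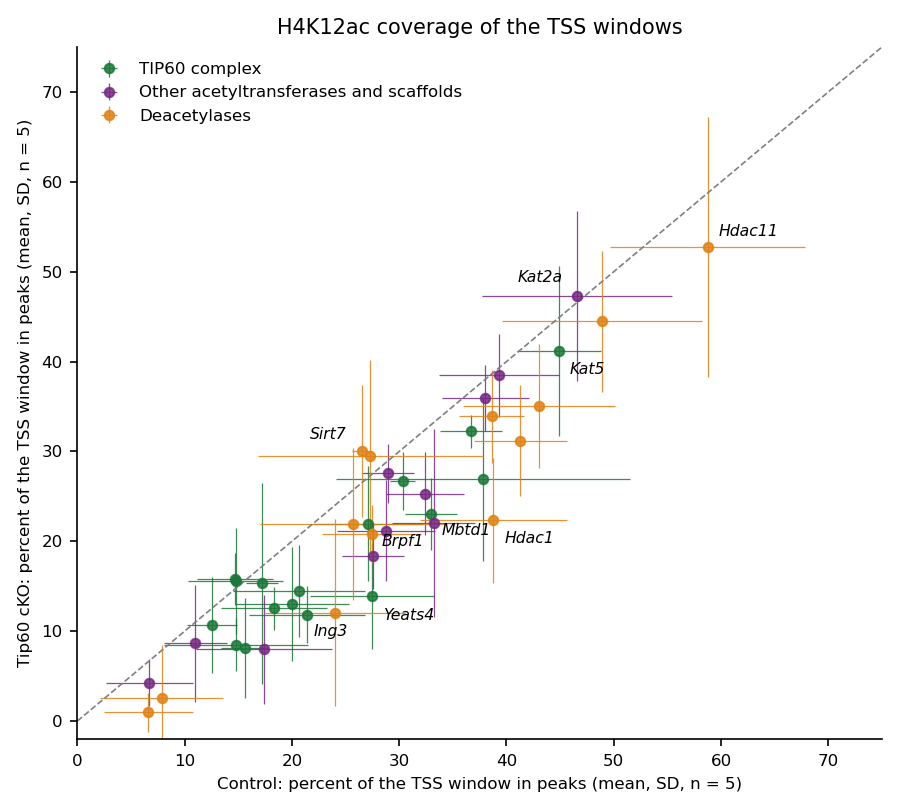
Mean TSS coverage of the 41 tested genes in control (x axis) and Tip60 cKO libraries (y axis), in percent of the 4 kb window, with SD over 5 libraries and the line of equality. Of these points 36 lie below the line, with *Hdac1* and *Yeats4* among the farthest and *Kat2a* and *Sirt7* above it.

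Within the TIP60 complex, the annotated 5′ end of *Morf4l1*, whose protein MRG15 reads methylated H3K36, was the highest in controls, and that of *Brd8*, a bromodomain subunit, the lowest of those with a peak. *Morf4l1* scored 98.9, 92.5, 98.8, 91.9 and 96.2 in Tip60 cKO and 99.3, 97.2, 98.3, 99.3 and 98.7 in controls, which overlap. *Brd8* scored 78.4, 77.5, 75.4, 80.001 and 0 in Tip60 cKO and 80.5, 72.8, 71.8, 83 and 81.7 in controls. Its difference of -15.7 therefore rests on Tip60 cKO library 5, where no peak was called, and is -0.14 without that library. *Ruvbl2*, an AAA+ ATPase that forms rings with *Ruvbl1*, had no peak at its 5′ end in Tip60 cKO library 2 and otherwise scored 77.3 to 87.6 in Tip60 cKO and 72.6 to 85.7 in controls. *Ruvbl1* showed the largest difference upwards of the complex at the annotated 5′ end, with 80.7, 86.8, 94.6, 79.9 and 88.4 in Tip60 cKO against 77.6, 80.4, 86.1, 79.0 and 74.0 in controls. The groups overlapped, and its difference of 6.64 had an adjusted p of 0.503 by limma. The scaffold *Trrap* (91.2 ± 5.4 and 87.7 ± 11.7, SD, n = 5) and the ATPase *Ep400* (94.0 ± 4.41 and 92.4 ± 6.01), which exchanges H2A.Z, overlapped between genotypes. So did the enhancer of polycomb genes *Epc1* and *Epc2*, which tie the catalytic subunit to nucleosomes, and *Vps72*, a chaperone of H2A.Z. *Mrgbp*, whose protein binds MRG15, had 80.8 ± 6.12 and 86.2 ± 5.35 (Tip60 cKO and control, SD, n = 5), and *Actl6b*, the neuronal actin-related subunit, 90.6 ± 9.71 and 86.4 ± 2.41, and both overlapped too. Over the class, 11 of 17 genes were lower with a median difference of -2.80, which was 0.59 within lane 7, -4.28 within lane 8 and -0.61 without Tip60 cKO library 5.

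TSS coverage of the complex was lower at 15 of 17 genes with a median difference of -5.79 percentage points, -3.73 within lane 7 and -7.02 within lane 8. *Yeats4*, which reads acetylated histone tails, had 21.6, 13.3, 16.5, 5.55 and 12.5% of its window in peaks in Tip60 cKO and 29.8, 25.6, 34.1, 18.6 and 29.2% in controls. Only Tip60 cKO library 1 lies above the lowest control, and the difference of -13.6 ± 3.56 (SE) had an adjusted p of 0.0697 by limma. It was called in 4 of 16 alternatives, among them the one with an equal number of peaks per list, where the adjusted p was 0.0328. *Mbtd1*, a reader of methylated H4K20 that shares its promoter with *Utp18*, had 29.2, 21.7, 23.1, 23.2 and 18.1% against 36.2, 32.4, 30.8, 34.7 and 30.8%, without overlap (adjusted p = 0.0639 by limma). *Ing3*, a PHD finger protein that binds methylated H3K4, had 13.2, 12.1, 7.4, 15.9 and 10.6% against 26.2, 28.2, 17.7, 16.2 and 18.7%, also without overlap (adjusted p = 0.0994 by limma). With equal numbers of peaks this difference was 0.13 percentage points, so it is not seen when the lists are of the same length. *Meaf6*, a subunit shared with the complexes of other acetyltransferases, and *Vps72* were the 2 genes with higher means in Tip60 cKO, by 0.855 and 1.09 percentage points.

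Among the other acetyltransferases, *Ep300*, the gene of the coactivator p300, had the highest mean score of all 44 genes at the annotated 5′ end. It scored 99.4, 97.2, 99.97, 99.8 and 98.7 in Tip60 cKO and 99.7, 99.8, 99.7, 99.99 and 99.998 in controls, and its strongest peak was enriched 7.28- to 12.7-fold and 11.6- to 13.8-fold. The ranks overlapped, and near the top of the scale they can hardly rise. *Crebbp*, which encodes the related CBP, had 96.7 ± 2.68 and 96.9 ± 3.97 (SD, n = 5). *Hat1*, whose enzyme acetylates newly made H4 before it is built into chromatin, was the lowest with a peak, at 68.1, 68.2, 71.0, 0 and 74.8 in Tip60 cKO and 71.7, 76.5, 72.4, 0 and 78.6 in controls. Replicate 4 of either genotype had no peak there, and both of these libraries were sequenced on lane 8. *Kat2a* and *Kat2b*, the paralogues GCN5 and PCAF of the SAGA and ATAC complexes, differed in level. *Kat2a* scored 86.8, 90.6, 89.6, 95.8 and 83.5 in Tip60 cKO and 94.3, 98.5, 87.3, 92.7 and 91.0 in controls. *Kat2b* scored 74.7, 74.5, 0, 88.7 and 74.8 in Tip60 cKO and 77.6, 75.1, 70.9, 73.5 and 68.2 in controls, and the genotypes overlapped for both genes. *Kat7*, the acetyltransferase HBO1, had the largest difference of the class in rank score at the annotated 5′ end, with 80.02, 79.6, 85.2, 0 and 72.8 against 86.8, 90.7, 80.5, 89.6 and 91.6 (-24.3 ± 15.1, SE, adjusted p = 0.546 by limma). Its difference was -8.43 without Tip60 cKO library 4, which lacked the peak. *Kat8*, the H4K16 acetyltransferase MOF, differed by 0.108.

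*Brpf1*, a scaffold that activates MOZ, MORF and HBO1, was the gene nearest to a call in TSS rank score. It scored 77.0, 77.8, 75.2, 71.1 and 72.7 in Tip60 cKO and 86.6, 85.5, 85.5, 81.9 and 85.4 in controls. Every Tip60 cKO library was lower than every control library, and the difference of -10.2 ± 1.93 (SE) had an adjusted p of 0.0989 by limma, or 0.0572 to 0.922 over 21 alternatives. Its coverage was 20.5, 22.6, 18.1, 17.7 and 12.8% against 27.4, 28.9, 28, 22.9 and 30.7% (adjusted p = 0.0744 by limma), also without overlap, and it was called with an equal number of peaks and with a window of 1 kb. Fold enrichment of the highest peak in the window was 4.19, 4.17, 3.90, 3.14 and 3.19 against 6.06, 5.75, 6.03, 5.08 and 5.62. The pileup of the same peaks, however, was 29, 28, 31, 20 and 19 against 37, 32, 29, 22 and 32, which overlap. The local background that divides it was 1.59, 1.69, 2.02, 1.64 and 2.26 times the genome-wide level in Tip60 cKO and 1.42, 1.21, 1.17, 1.21 and 1.21 times in controls, higher in every Tip60 cKO library than in every control library. In Tip60 cKO library 4 the rank score came from another peak, 1517 bases after the TSS, with a fold enrichment of 3.54 at a pileup of 15 and a background of 1.01. Ranked by pileup, the difference of *Brpf1* turned to 1.27 (adjusted p = 0.922 by limma). The part of the Tip60 cKO input in the lower enrichment at this gene was not tested. The related *Brpf3* (95.4 ± 6.45 and 98.4 ± 1.27, SD, n = 5) and *Brd1* (84.4 ± 3.13 and 88.0 ± 0.696) overlapped between genotypes.

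**Figure D4:**
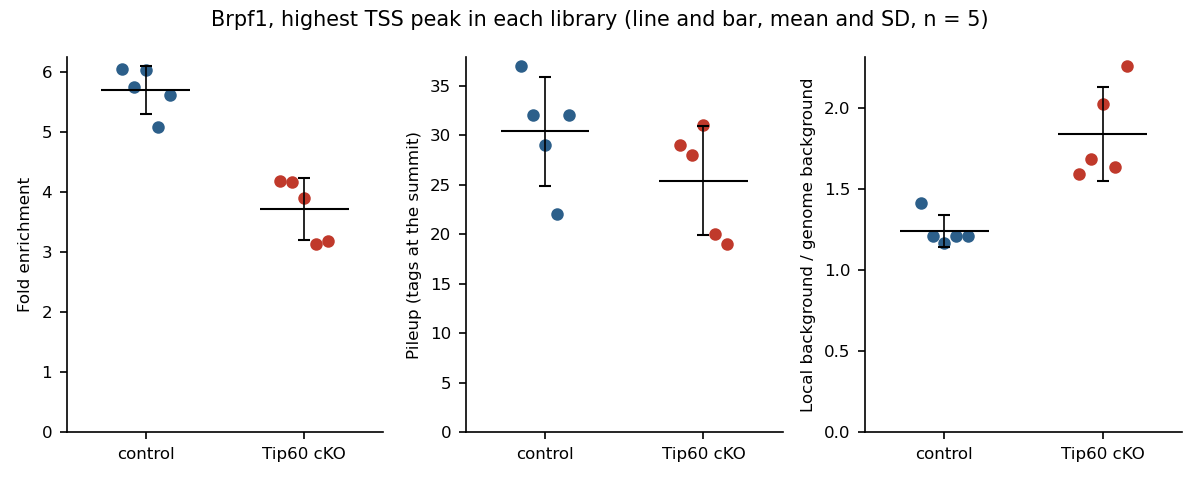
Highest TSS peak of *Brpf1* by library, as fold enrichment (left), pileup in fragments (middle) and local over genome-wide background (right), with mean and SD over 5 libraries. Fold enrichment separates the genotypes, pileup does not, and all 5 Tip60 cKO libraries have a higher background than every control library.

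Over the class of other acetyltransferases 10 of 11 genes were lower in rank score (median difference -3.44, -2.76 within lane 7 and -1.90 within lane 8) and 10 of 11 in TSS coverage (median difference -2.46 percentage points, -5.42 within lane 7 and -4.64 within lane 8). Ranked by pileup, the median difference in rank score was -1.08. The median relative enrichment was 0.29, 0.22, 0.23, 0.26 and 0.01 on the log2 scale in Tip60 cKO and 0.49, 0.64, 0.29, 0.15 and 0.14 in controls, which overlap.

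Of the deacetylases, *Hdac5*, a class IIa enzyme that shuttles between cytoplasm and nucleus, had the highest mean score in controls at the annotated 5′ end. It scored 87.6, 96.6, 99.6, 94.6 and 98.2 in Tip60 cKO and 97.6, 93.4, 95.9, 96.8 and 88.4 in controls. *Hdac2*, a class I enzyme of the Sin3, NuRD and CoREST complexes, scored 94.0, 91.9, 93.4, 95.4 and 98.2 in Tip60 cKO and 92.0, 90.3, 86.1, 94.7 and 91.0 in controls. Its groups overlapped, and the difference of 3.78 had an adjusted p of 0.503 by limma. *Hdac3*, the catalytic subunit of the NCoR complex, had the largest difference upwards of all 44 genes in rank score at the annotated 5′ end. It scored 87.6, 86.0, 80.9, 88.7 and 93.1 in Tip60 cKO and 74.2, 74.3, 86.6, 79.7 and 86.4 in controls, which overlap (adjusted p = 0.482 by limma). Its relative enrichment was higher by 0.35 on the log2 scale (adjusted p = 0.199), and both differences changed sign when pileup replaced fold enrichment (-1.14 in rank score and -0.05 on the log2 scale). Background at its strongest peaks was 1 to 1.01 times the genome-wide level in Tip60 cKO and 1.04 to 1.82 times in controls.

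*Hdac1*, the close paralogue of *Hdac2*, had the smallest adjusted p of all 44 genes in TSS coverage. Peaks covered 33.3, 20.3, 19.5, 23.7 and 14.8% of its window in Tip60 cKO and 32.7, 42.4, 42.6, 45.9 and 30.3% in controls (adjusted p = 0.0596 by limma). Tip60 cKO library 1 was within the range of the controls and the other 4 were below it, and without library 1 the gene was called. With equal numbers of peaks the adjusted p was 0.364. *Hdac11*, the sole class IV enzyme, had the widest acetylation in controls with 58.8 ± 9.07% of the window and 52.8 ± 14.4% in Tip60 cKO (SD, n = 5). Of the sirtuins, *Sirt7* of the nucleolus (91.9 ± 4.82 and 91.9 ± 5.68 in rank score) and *Sirt6*, a deacetylase of H3 in chromatin (92.6 ± 3.52 and 90.8 ± 2.94), had the highest mean scores at the annotated 5′ end. The mitochondrial *Sirt3* (84.6 ± 3.85 and 83.9 ± 4.52) overlapped as well. *Sirt2*, whose enzyme deacetylates tubulin in the cytoplasm, scored 81.7, 71.3, 86.9, 73.8 and 0 in Tip60 cKO and 89.3, 88.3, 87.3, 77.2 and 87.5 in controls, with no peak in Tip60 cKO library 5 (adjusted p = 0.567 by limma). Over the class 5 of 13 genes were lower in rank score with a median difference of 0.91, which was 1.47 within lane 7, -1.34 within lane 8 and -0.56 when ranked by pileup. In relative enrichment 2 of 10 were lower, with a median difference of 0.09 on the log2 scale. In TSS coverage 11 of 13 were lower with a median difference of -5.63 percentage points, -4.77 and -7.54 within the lanes.

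At *Hdac4* and *Hdac7*, both of class IIa, the peak at the annotated 5′ end was found mostly in controls, while a start further downstream was acetylated in all lists. *Hdac4* (chr1:91928779-92195699) scored 66.8, 0, 0, 0 and 0 at the 5′ end in Tip60 cKO and 66.0, 67.1, 0, 69.0 and 71.8 in controls. *Hdac7* (chr15:97792664-97844502) scored 68.1, 0, 0, 0 and 0 in Tip60 cKO and 68.8, 66.7, 68.0, 0 and 69.6 in controls. A weak peak was thus present in 1 Tip60 cKO and 4 control lists at either gene, and the differences of -41.4 and -41.0 had adjusted p values of 0.414 and 0.421 by limma. These 4 control libraries each had a peak in 1 merged region of the *Hdac7* window, upstream of the TSS (chr15:97844543-97845097), which the peaks of Tip60 cKO library 1 did not overlap.

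In 9 genes the strongest acetylated start of any annotated transcript lay over 2 kb downstream of the 5′ end, and it had a peak in all 10 lists. The distances were 2.2 kb in *Actl6a*, 3.0 kb in *Hdac10*, 3.4 kb in *Ruvbl2*, 10.12 kb in *Hdac9*, 12.7 kb in *Hdac7*, 15.4 kb in *Hdac4*, 18.3 kb in *Kat6b*, 25.3 kb in *Epc1* and 42.7 kb in *Sirt1*. With any transcript start, 41 of the 44 genes had a peak in every list, beside 25.3% of all genes and 48.3% of the protein-coding genes. *Kat6b*, which encodes the acetyltransferase MORF and had no peak at its 5′ end, scored 97.4, 98.7, 99.3, 98.1 and 97.0 at this start in Tip60 cKO and 96.7, 99.9, 99.3, 99.3 and 98.0 in controls. *Actl6a*, the actin-related subunit of non-neuronal cells, scored 89.0, 95.4, 90.5, 95.8 and 98.6 against 83.7, 89.1, 86.7, 82.8 and 85.3, where only Tip60 cKO library 1 was not above all controls (adjusted p = 0.195 by limma). *Hdac4* scored 87.5 ± 4.89 and 92.1 ± 3.11 (SD, n = 5) at the downstream start and *Hdac7* 96.7 ± 2.74 and 95.8 ± 4.21, so that the latter's difference was 0.93 rather than -41.0. The *Hdac7* promoters printed above differ in their share of CpG, with an observed over expected ratio of 0.283 at the 5′ end and 1.09 at the downstream start. A RefSeq start of *Kat6b*, *Hdac4* and *Sirt1* coincides with this downstream start, and *Hdac7* has a RefSeq start at either position.

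**Figure D5:**
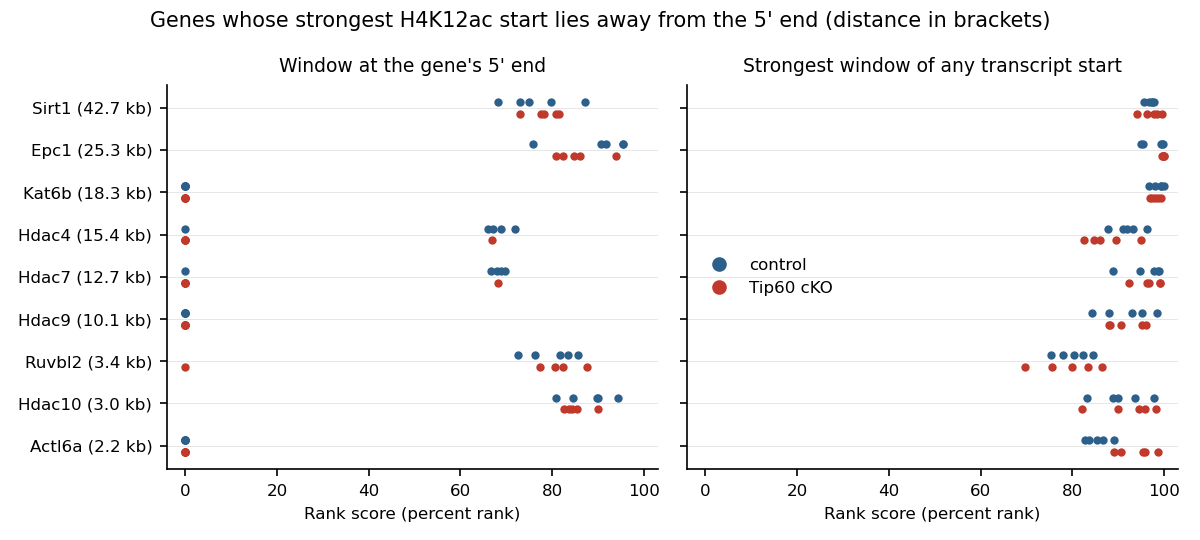
Rank scores (percent rank) of the 9 genes whose strongest start lies away from the 5′ end, for the window at the 5′ end (left) and for the strongest transcript start (right), 1 point per library, with the distance in kb in brackets. *Kat6b*, *Hdac9* and *Actl6a* are at 0 on the left in all libraries and above 80 on the right.

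In the control libraries, mean gene body coverage by H4K12ac peaks was widest at 5 deacetylases. Over the 36 genes tested its median in controls was 4.02%, with 4.56% in the TIP60 complex, 2.70% in the other acetyltransferases and 4.63% in the deacetylases, beside 2.84% over the 12823 bodies tested. Peaks covered there 33.1 ± 7.72% of the body of *Hdac10*, 22.2 ± 2.91% of *Hdac7*, 16.7 ± 4.02% of *Hdac5*, 12.4 ± 4.12% of *Hdac11* and 8.74 ± 3.67% of *Sirt2* (SD, n = 5). In Tip60 cKO these values were 33.3 ± 7.55, 20.1 ± 6.25, 16.5 ± 8.12, 14.0 ± 2.95 and 5.22 ± 1.94%, and the genotypes overlapped in all 5. The body starts 2 kb after the annotated 5′ end. It therefore includes the strongest acetylated start of *Hdac10* (3.0 kb after that end) and of *Hdac7* (12.7 kb). *Hdac10* is also short, at 5.39 kb. The part of internal starts in these coverages was not tested. *Hdac2*, *Brd8*, *Morf4l1*, *Yeats4*, *Kat2b* and *Hat1* had no body peak in any list. Over the 36 genes tested, 23 were lower in Tip60 cKO with a median difference of -0.25 percentage points, beside 74.2% and -0.53 over all bodies. By class, 11 of 14 genes of the TIP60 complex, 6 of 9 other acetyltransferases and 6 of 13 deacetylases were lower.

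*Kat6a*, which encodes the acetyltransferase MOZ, was the gene whose body coverage did not overlap, lower in Tip60 cKO, beside 3.96% of all bodies lower and 0.0468% higher. Peaks covered 1.64, 0.759, 0.962, 1.37 and 0.803% in Tip60 cKO and 3.52, 2.69, 2.30, 2.55 and 1.85% in controls, and the difference of -1.48 ± 0.340 (SE) had an adjusted p of 0.110 by limma. With an equal number of peaks the adjusted p was 0.543. An intronic region of *Kat6a* (chr8:22888703-22889256) had a peak in 0 Tip60 cKO and 4 control lists, as did an exonic region of *Actl6b* (chr5:137564353-137564981), the neuronal counterpart of *Actl6a*. The body of *Actl6b* was covered by 1.91, 4.72, 2.50, 1.4 and 0% in Tip60 cKO and 5.005, 6.66, 7.93, 3.04 and 9.41% in controls (adjusted p = 0.174 by limma). *Sirt6* went the other way, with 0, 0, 5.31, 5.73 and 4.76% in Tip60 cKO and 0% in every control library (adjusted p = 0.267 by limma), and the body of this gene of 6.01 kb is short.

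Merged peaks of all lists gave 394 regions in or near the 44 genes with a peak in at least 2 lists, 85 in the TIP60 complex, 116 in the other acetyltransferases and 193 in the deacetylases. They were most numerous in *Hdac4* (68), *Kat6b* (54) and *Hdac9* (40), which are also the longest genes. Of the 394 regions 158 lay within 2 kb of a transcript start, 62 had their summit in an exon and 174 in an intron. A peak in all 10 lists was found in 64 regions, 52 of them near a start. Those away from a start were 12, of which 3 lay in *Hdac7* and 2 in *Hdac4*. The region chr15:97822904-97826435 in an intron of *Hdac7*, 19.8 kb after the TSS, scored 90.8 ± 5.36 in Tip60 cKO and 86.1 ± 8.49 in controls (SD, n = 5) as percent rank among all regions. The region chr15:81648479-81650976 over coding sequence of *Ep300*, 64.4 kb after the TSS, scored 84.3 ± 11.7 and 79.2 ± 17.2.

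By limma over all 144701 regions, 1 of the 394 regions was called, beside 0.475% of all regions lower and 0.0864% higher. At an unadjusted p below 0.05, limma had 16 of the 394 lower (4.06%) and 14 higher (3.55%), beside 8.34 and 3.68% of all regions. A peak in at least 4 more control lists was found in 4 regions, of *Actl6b*, *Kat6a*, *Kat6b* and *Hdac7* (the last at its 5′ end, given above), and in at least 4 more Tip60 cKO lists in 1 region, beside 2.27 and 0.498% of all regions. Without overlap between genotypes were 1 region lower in Tip60 cKO, at the start of *Brpf1* (chr6:113306788-113308034, 75.3 ± 8.47 and 93.1 ± 1.43, SD, n = 5, adjusted p = 0.329 by limma, and called when regions found in fewer than 5 lists were left out), and the called region, beside 1.34% of all regions lower and 0.783% higher. The called region was that of *Ep400* (chr5:110667876-110668710), 102 kb after the TSS and within 2 kb of another annotated transcript start. It lay over a coding exon and the intron after it, part of which a longer annotated exon also covers. It scored 73.2, 54.9, 56.4, 60.3 and 72.7 in Tip60 cKO and 0, 38.8, 0, 0 and 0 in controls. Every Tip60 cKO library was higher than every control library, and the difference of 55.8 ± 9.15 (SE) had an adjusted p of 0.0252 by limma. This separation depends on the merging of neighbouring stretches, since the peak of Tip60 cKO library 5 (chr5:110667958-110668208) does not reach the stretch printed above that the other 4 Tip60 cKO libraries share, and overlaps the peak of control library 2 (chr5:110667910-110668392). The peaks were low, with a pileup of 10 to 17 in Tip60 cKO, beside 18 in control library 2, where the local background was 1.93 times the genome-wide level. Control libraries 3 and 4 and Tip60 cKO libraries 1 and 2 had another peak just beside the region (chr5:110667310-110667864). Recomputed under 14 alternatives after the data were seen, the region was called in 7, with adjusted p values from 0.00281 to 0.294. It lost the call when ranked by pileup (0.206), with lane as a covariate (0.0502) and with the replicate number as a block (0.294), and in 4 of the 10 fits that left out 1 library (without Tip60 cKO library 5 or control library 1, 3 or 5). Beyond these 14, the peaks with q below 0.01 split into 1 stretch with peaks in 2 Tip60 cKO lists and 1 with peaks in 4 Tip60 cKO lists and no control list (adjusted p = 0.413 and 0.1404 by limma). With equal numbers of peaks, each stretch had a peak in 1 list and could not be tested, so the region was called in neither.

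The promoters analysed were rich in CpG. The RefSeq promoters of 37 of the 44 genes were used, 32 of them with a peak in every list, and those of *Epc1*, *Brd8*, *Vps72*, *Kat6a*, *Hdac1*, *Hdac3* and *Hdac10* were not analysed here. Where a gene had several, the promoter nearest to its strongest acetylated start was taken. No such choice by acetylation was made in the sets compared with them, and its part in the differences was not tested. The median GC content was 61.7% with a CpG observed over expected ratio of 0.863, beside 52.7% and 0.384 over 32851 RefSeq promoters and 62.0% and 0.764 over the 11935 promoters with a peak in every list. The SP1 motif (gggcgg) was found in 27 of 37 (73%), beside 35.7% of all promoters and 63% of those with a peak in every list. The ETS motif (ccggaag) was found in 10 (27%), beside 8.86 and 16.4%, and the CCAAT box (ccaat) in 16 (43.2%), beside 37.4 and 33.8%. The E-box (cacgtg) stood in 5 promoters, those of *Kat5*, *Mbtd1*, *Hat1*, *Hdac5* and *Sirt1* (13.5%, beside 7.15 and 9.73%), and the TATA motif (tataaa) in those of *Ruvbl1* and *Hdac9* (5.41%, beside 13.6 and 6.16%). The *Hdac9* promoter used lies at the annotated 5′ end, where no list had a peak. The NRF1 motif was found in 2, CRE (tgacgtca) in 1 and the YY1 motif in 0 of 37, beside 0.971, 1.79 and 0.633% of all promoters. Both strands were searched, matches may overlap, and a match describes letters in this window and no binding.

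Other genes of the same pathways, 77 in all, were tested in the same way and included partners of acetyltransferases (34), partners of deacetylases (36) and enzymes of acetyl-CoA and NAD supply (7). A TSS peak in every list was found in 62, beside 23.5% of all genes and 44% of the protein-coding genes. In TSS rank score 45 of 75 were lower, with a median difference of -1.79, beside 55.6% and -0.69 over all genes. In TSS coverage 70 of 75 were lower, with a median difference of -5.72 percentage points, beside 81.0% and -4.01. None was called by limma in either value. At an unadjusted p below 0.05, limma had 8 lower and 4 higher in score, beside 6.68 and 5.1% of all genes. In coverage 19 were lower and 1 higher at this threshold, beside 22.3 and 0.891%. In relative enrichment 39 of 62 were lower, beside 45.6% of all genes. Of the 62, 2 were called by limma, both higher in Tip60 cKO, beside 0.792% of all genes called lower and 2.78% higher. At an unadjusted p below 0.05, limma had 7 lower and 5 higher, beside 6.2 and 11.7% of all genes. In gene body coverage none of 56 was called by limma, with 2 lower and 0 higher at an unadjusted p below 0.05, beside 14.9 and 0.866% of all bodies. *Suds3*, a subunit of the Sin3 complex, had 0.28, 0.91, 0.91, 0.74 and 0.23 on the log2 scale in Tip60 cKO and 0.01, -0.30, -0.05, 0.16 and -0.15 in controls (difference 0.68 ± 0.15, SE, adjusted p = 0.00734 by limma). *Nmnat1*, which makes NAD in the nucleus, had 0.36, 0.41, 0.40, 0.42 and 0.49 in Tip60 cKO and -0.10, -0.29, -0.29, -0.09 and -0.59 in controls (difference 0.69 ± 0.14, SE, adjusted p = 0.00320 by limma). Neither gene overlapped between genotypes, and both kept the call without any 1 library (0.00431 to 0.0340). With pileup in place of fold enrichment the differences were 0.34 and 0.32 with adjusted p values of 0.364 and 0.364, so neither gene was called by pileup.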

How the data were processed

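H4K12ac peak lists of 5 Tip60 cKO and 5 control libraries were used, grouped by the genotype in their labels. Per the methods, the authors aligned reads to mm10 using STAR and discarded duplicates (samtools rmdup). Per the file headers, MACS 2.1.0.20140616 was run on each library at q below 0.1, with 1 input file per genotype as background. The deposited pileup is a coverage signal at the summit. Fold enrichment, also deposited, divides pileup by background as a ratio, with 1 added to either. As deposited, significance is on the −log10 scale, both for the p-value and for the q-value. The lists grow with depth, and a missing peak is a value below threshold, not an absence of acetylation. Since they hold no read counts, the read-based differential binding test of the study was not repeated, and precision comes from 5 libraries per genotype.

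The genes were chosen by name with earlier results of these data known, as were the lists of partners, markers and motifs, so no test over the list was made. TSSs came from GENCODE M21. Local background was recovered as the pileup plus 1 over fold enrichment, minus 1, relative to the lowest of the list. The limma package 3.58.1 (R 4.3.3) tested every gene or region that had peaks in 2 lists or more, with Benjamini-Hochberg adjusted p below 0.05, and at *Kat5* by two-sided exact permutation over 252 assignments (smallest p 0.00794). Other steps used scipy 1.17.1, pandas 2.3.3 and numpy 2.4.6 under Python 3.11.15. The fits were tested on simulated data. Replicates 1 to 3 were on lane 7 and 4 and 5 on lane 8, as the deposited files name them.

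Named with values per library were *Kat5*, genes called or without overlap in a comparison, genes without a TSS peak in a list, the extremes of each class in level and difference, the 5 widest bodies, *Hdac2* and *Kat2a*, and others after their values were seen (*Kat6b*, *Actl6a*, *Actl6b*, *Sirt6*, *Hdac1*, *Yeats4*). Alternatives were q below 0.01, the 64245 strongest peaks of each list, ranking by pileup, windows of 1 kb, all transcript starts, bodies from 5 kb, regions in at least 5 lists, no filter or a filter of 5 lists, protein-coding genes alone, a mean-dependent robust prior, lanes, the replicate number as a block and each library left out.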

Additional observations from a re-analysis of the deposited data

Results flagged for a closer look

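Of 96 groups of 5 libraries tested, 19 had a value that stood apart from the other 4 by more than Dixon's critical value of 0.71 allows (19.8%). This share cannot be compared with a chance rate. Genes without a TSS peak in a list were among those chosen for printing and so for this scan. A lone 0 beside high scores, or a lone peak beside scores of 0, exceeds the critical value by that choice. Tip60 cKO library 5, with the shortest list, and control library 4 held 5 each. In 9 of the 19 a peak was missing from the list of 1 library. A TSS rank score of 0 stood alone for *Brd8* and *Sirt2* in Tip60 cKO library 5, *Ruvbl2* in library 2, *Kat2b* in library 3, *Kat7* in library 4, *Hat1* in Tip60 cKO library 4 and control library 4, *Hdac4* in control library 3 and *Hdac7* in control library 4. The reverse was seen at *Hdac4* and *Hdac7*, where Tip60 cKO library 1 alone had a peak, at 66.8 and 68.1.

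Values that stood apart without a missing peak were the rank scores of *Kat5* in Tip60 cKO library 5 (86.0, the others 95.1 to 98.6), of *Brpf1* in control library 4 (81.9, the others 85.4 to 86.6) and of *Sirt2* in control library 4 (77.2, the others 87.3 to 89.3). The body of *Hdac7* was covered by 9.23% in Tip60 cKO library 5 and by 20.5 to 24.4% in the others. Of the medians over a class, those that stood apart were the body coverage of the TIP60 complex in control library 4 (1.61%, the others 4.40 to 4.94%), the relative enrichment of the other acetyltransferases in Tip60 cKO library 5 (0.0112 on the log2 scale, the others 0.219 to 0.292), and the rank score and relative enrichment of the deacetylases in control library 2 (80.9, the others 86.4 to 87.5, and -0.22, the others 0.01 to 0.08).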

How the results depend on the processing

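No gene of the 44 was called in TSS rank score (21 alternatives), relative enrichment (17) or gene body coverage (15). In TSS coverage 1 was called with lane as a covariate, 2 with equal peak numbers, 1 with a window of 1 kb and 0 to 3 without 1 library (*Hdac1*, *Yeats4* and *Mbtd1* without Tip60 cKO 1). Among regions 2 were called with at least 5 lists (of *Ep400* and *Brpf1*), 0 to 4 without 1 library (of *Kat6b*, *Hdac7*, *Ep400* and *Actl6b* without control 4), and 0 with the replicate block, lane, q below 0.01, equal peak numbers or pileup. Calls over all genes in rank score were 86 with a robust prior, and 57 to 101 without 1 library (101 without Tip60 cKO library 1). In TSS coverage 339 calls became 653 with lane, 522 with equal peak numbers, and 40 to 1416 without 1 library (1416 without Tip60 cKO 1, 931 without control 4, 40 without control 5). Relative enrichment gave 17 calls by pileup in place of 464, and 250 to 406 without 1 library. Body coverage gave 0 to 250 in place of 45 (250 without control 4, 0 without Tip60 cKO 5 or control 5). Regions gave 1594 in at least 5 lists, 437 with equal peak numbers, 4002 by a peak in at least 4 more lists, and 963 to 1426 without 1 library.

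Correlations between same-numbered libraries were -0.0375 to 0.0552 in rank score and -0.151 to 0.135 in TSS coverage, not above 0.1 in every pair, so the replicate numbers were not taken as a pairing. With the replicate block, calls were 35 in rank score, 0 in TSS coverage, 518 in relative enrichment, 0 in body coverage and 261 among regions, and the height at *Kat5*, whose difference of -0.51 the block leaves as it is, had an exact p of 0.125 in place of 0.0238. In rank score 3 of 5 libraries and in TSS coverage 1 of 5 correlated best with their own number.

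Median differences of a class moved as follows. In rank score the TIP60 complex had 0.59 within lane 7 and -2.78 to -0.61 without 1 library (-0.61 without Tip60 cKO 5), and the other acetyltransferases -1.08 by pileup. In coverage the other acetyltransferases had -5.42 within lane 7 and the deacetylases -9.70 in 1 kb. In relative enrichment the TIP60 complex had -0.0263 by pileup, -0.000674 over all starts, -0.0239 and -0.18 within lanes 7 and 8, and -0.10 to -0.0171 without 1 library. *Kat5* differed by 0.26 in rank score within lane 7, in floxed coverage by -7.56 within lane 8, -1.58 with equal peak numbers and -0.95 to 5.26 without 1 library (-0.95 without Tip60 cKO 1), and in height by -0.28 and -0.86 within lanes 7 and 8, -0.22 over the median TSS peak and -0.60 to -0.36 without 1 library (exact p 0.0238 to 0.0635). Single genes reversed by pileup (*Brpf1* 1.27 and 0.0468, *Hdac3* -1.14 and -0.0524), with all starts (*Hdac7* 0.93) and with equal peak numbers (*Ing3* 0.13). The cause of these changes was not tested. Without a filter on low values, most residual variances were 0 and the fit is unreliable. A score of 0 may be a peak just below threshold, and the part of depth in the missing peaks was not tested.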
